A study of Oncorhynchus mykiss with 20 samples.

Results

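The genes cd3e, cd8a, il7r and prf1 were followed in the whole intestine of young rainbow trout (Oncorhynchus mykiss), as a small set of T cell and cytotoxic genes. Members were chosen by gene symbol, and the expected counts of all transcripts that a RefSeq gene table pairs with each symbol were summed per gene. This gave 4 genes out of 61670 features in all, built from 6 transcripts. The 4 symbols were NCBI genes 100499597 (cd3e), 100135889 (cd8a), 110523781 (il7r) and 100136143 (prf1). No genome was used, so positions and sequences are not given.

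T cells recognise antigen through a receptor whose signal passes into the cell through the CD3 chains, of which cd3e encodes the epsilon chain. CD8, whose alpha chain cd8a encodes, is the coreceptor of T cells that read class I MHC molecules, and many of these cells kill their targets. The receptor for interleukin 7, encoded by il7r, pairs with the common gamma chain and carries survival signals to T cells and other lymphoid cells. Perforin, encoded by prf1, is the pore-forming protein that cytotoxic T cells and natural killer cells release from granules. In fish, as in mammals, the gut wall holds many T cells, both within the epithelium and beneath it.

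The study compared a selected strain (Select, labelled ARS-KO) with a common commercial strain (Commercial), each at 20 and 65 days post hatch (dph). The 4 groups were Select at 65 dph, Commercial at 65 dph, Select at 20 dph and Commercial at 20 dph, with 5 libraries in each, labelled as biological replicates. All fish came from all-female cohorts, shared their rearing as eggs and were fed a trout starter diet throughout. At 20 dph they had been feeding for some days, and at 65 dph they stood shortly before a planned move to a plant protein diet. After hatching each strain had its own raceway, so strain and raceway cannot be told apart. The labels do not say whether an intestine came from 1 fish or from several, and p-values therefore measure the spread between these samples.

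Library totals ran from 7314588 to 13682738 expected counts (estimated read numbers). Values are given as CPM, expected counts scaled to a common library size after TMM scaling. In a principal component analysis of log2 CPM, the ages parted on the first component (25.5% of the variance). On the second (8.78%), Commercial 65 dph replicate 2 scored -74.29, beside Select 65 dph replicate 5 at -76.72. The other Commercial 65 dph libraries lay between 65.54 and 74.91, and the other Select 65 dph libraries between -27.26 and -10.68. Select 20 dph replicate 1 held 22700 CPM summed over 6 liver marker genes, against 43.1 to 293 in the other Select 20 dph libraries. Intestinal epithelium markers were abundant in every library, with 9770 to 18100 CPM summed over 9 genes, as the tissue label says. Results that rest on the libraries that lay apart are also given without them.

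The first question is how the genes change as the fry grow. All of cd3e, cd8a, il7r and prf1 were higher at 65 dph than at 20 dph in each strain. Transcripts of cd3e were 3.72-fold higher in Select and 6.93-fold higher in Commercial, and those of il7r were 3.86-fold and 4.55-fold higher. Perforin gene prf1 was 5.86-fold higher in Select and 3.88-fold higher in Commercial. The coreceptor gene cd8a was 23.3-fold and 48.7-fold higher, over a 20 dph level near the counting limit. The difference between the strains' age effects was not called for any of them, as shown further on. In bulk samples, fewer cells of a type and less RNA per cell cannot be told apart.

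In Select, cd3e measured 28.2, 21.8, 33.0, 31.5 and 21.1 CPM at 65 dph, against 7.16, 9.02, 5.66, 7.19 and 7.38 CPM at 20 dph. In Commercial it measured 32.1, 24.4, 26.7, 24.3 and 20.9 CPM at 65 dph, against 3.76, 3.36, 4.58, 3.88 and 2.87 CPM at 20 dph. The ages did not overlap in either strain, and the lowest 65 dph library (20.9 CPM) stood well above the highest 20 dph library (9.02 CPM). The log2 fold change of 65 over 20 dph was 1.90 ± 0.16 in Select (SE; edgeR quasi-likelihood test, adjusted p = 8.64e-07) and 2.79 ± 0.17 in Commercial (adjusted p = 4.82e-08). In Commercial, this was the lowest p among all 32166 features tested, and in Select cd3e ranked 28 by p. The group means in falling order were 27.1 ± 5.48 CPM in Select 65 dph, 25.7 ± 4.15 in Commercial 65 dph, 7.28 ± 1.19 in Select 20 dph and 3.69 ± 0.634 in Commercial 20 dph (SD, n = 5 each), and the 2 groups at 65 dph overlapped.

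The coreceptor gene cd8a was close to absent from the counts at 20 dph. In Select it measured 6.66, 5.46, 8.3, 7.63 and 5.15 CPM at 65 dph, against 0.143, 0.627, 0.109, 0.488 and 0 CPM at 20 dph. In Commercial it measured 6.99, 5.39, 7.03, 7.11 and 2.95 CPM at 65 dph, against 0.179, 0.116, 0.109, 0 and 0.12 CPM at 20 dph. The ages stood far apart in both strains, and Commercial 65 dph replicate 5 was the lowest of the older libraries. Its counts over 5 libraries summed to 362 in Select 65 dph and 270 in Commercial 65 dph, against 11 in Select 20 dph (exact Poisson 95% interval 5.49 to 19.7) and 5 in Commercial 20 dph (1.62 to 11.7). These intervals cover counting error only. The gene cd8a passed the filter on low counts only through the 65 dph libraries, so it had to be higher there to be tested. Its p-values for age are therefore no separate evidence of a rise. The log2 fold change was 4.54 ± 0.54 in Select (adjusted p = 7.38e-06) and 5.61 ± 0.59 in Commercial (adjusted p = 1.93e-06). On the log2(TPM + 1) scale, which understates the change of low genes, it was 3.43 in each strain.

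The cytokine receptor gene il7r had counts enough at both ages. In Select it measured 15.3, 15.9, 22.7, 21.5 and 12.9 CPM at 65 dph, against 3.01, 6.14, 3.16, 5.49 and 5.04 CPM at 20 dph. In Commercial it measured 20.0, 14, 16.5, 16.6 and 17.2 CPM at 65 dph, against 3.22, 3.59, 3.49, 3.53 and 4.67 CPM at 20 dph. Again the ages did not overlap, while the strains overlapped at each age. The log2 fold change was 1.95 ± 0.20 in Select (adjusted p = 2.52e-06) and 2.18 ± 0.21 in Commercial (adjusted p = 7.81e-07).

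Perforin transcripts were the fewest per length of the 4 at 65 dph. In Select, prf1 measured 4.19, 4.35, 7.08, 3.7 and 3.4 CPM at 65 dph, against 0.716, 0.501, 0.654, 0.975 and 0.983 CPM at 20 dph. In Commercial it measured 4.37, 2.97, 3.3, 3.87 and 6.25 CPM at 65 dph, against 1.25, 0.811, 1.2, 0.941 and 1.08 CPM at 20 dph. The ages did not overlap, and the order of the strain means differed between ages: 4.54 ± 1.47 CPM in Select and 4.15 ± 1.29 in Commercial at 65 dph, and 0.766 ± 0.21 in Select and 1.06 ± 0.183 in Commercial at 20 dph (SD, n = 5 each). Like cd8a, prf1 passed the filter on low counts only through the 65 dph libraries, so its p-values for age are no separate evidence of a rise. The log2 fold change with age was 2.55 ± 0.28 in Select (adjusted p = 3.82e-06) and 1.96 ± 0.27 in Commercial (adjusted p = 3.1e-05). On the log2(TPM + 1) scale it was 1.69 in Select and 1.40 in Commercial.

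**Figure D1:**
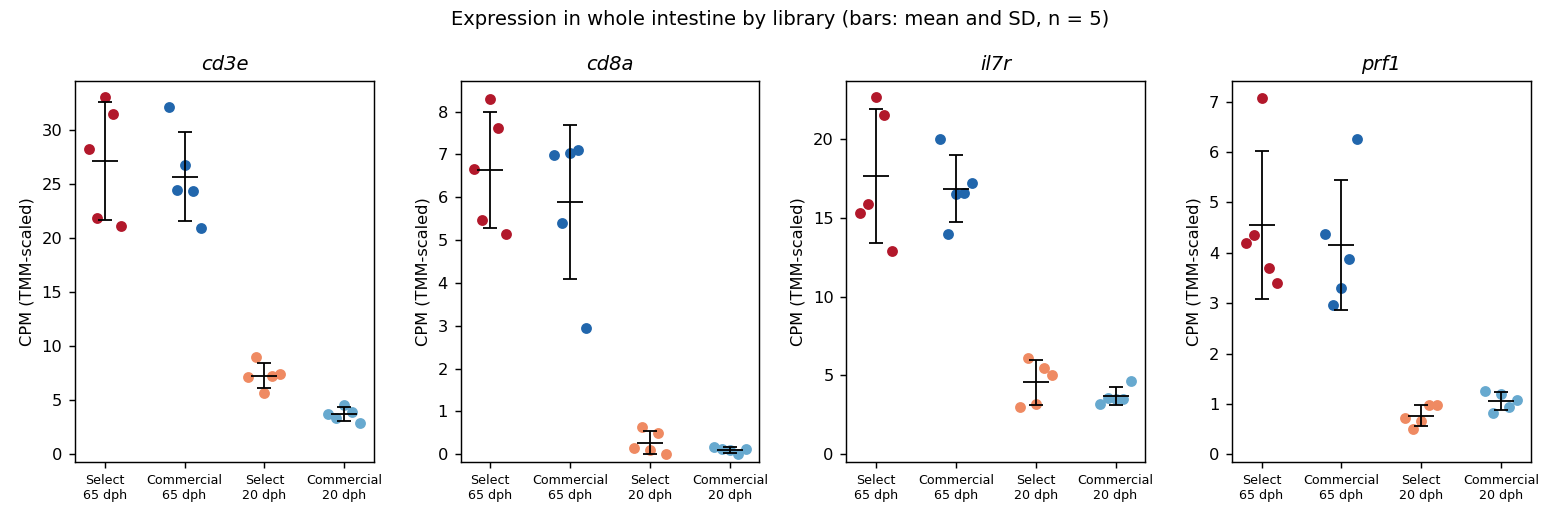
Expression of cd3e, cd8a, il7r and prf1 in CPM (TMM-scaled, linear axes that differ between panels) in each of the 20 libraries, with the mean and SD of 5 libraries per group. Every 65 dph library lies above every 20 dph library of its strain in each panel. Features whose ages part in this way made up 11.6% of all features in Select and 10.3% in Commercial. Both cd8a and prf1 passed the filter on low counts only through the 65 dph libraries. At 20 dph, cd3e is the panel in which the Select libraries (5.66 to 9.02 CPM) all lie above the Commercial ones (2.87 to 4.58 CPM).

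Calls with age were common in these tissues, with 34.3% of all features called in Select (16.4% higher and 17.9% lower) and 30.1% in Commercial (14.5% higher and 15.6% lower). Groups that did not overlap and were higher at 65 dph made up 11.6% of features in Select and 10.3% in Commercial. The filter on low counts was passed by cd3e and il7r on the libraries of either age alone. It was passed by cd8a and prf1 only with the 65 dph libraries, so these 2 had to be higher at 65 dph to be tested at all, and no count over the 4 genes is read against that background. Without the 2 libraries that lay apart at 65 dph, the log2 fold changes of cd3e, cd8a, il7r and prf1 were 1.97, 4.62, 2.04 and 2.63 in Select and 2.84, 5.67, 2.27 and 2.08 in Commercial. All of them stayed below an adjusted p of 0.05 in every alternative that was run.

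Levels of different genes are compared here per length, as the deposited TPM (an abundance scaled for transcript length and library size). At 65 dph cd3e was the most abundant, at 34.9 ± 5.7 TPM in Select and 32.1 ± 5.97 in Commercial. It was followed by il7r at 15.2 ± 3.37 in Select and 14.2 ± 1.74 in Commercial, cd8a at 13.8 ± 2.53 and 12 ± 3.67, and prf1 at 3.91 ± 1.23 and 3.4 ± 0.9 (SD, n = 5 each). The ranges of il7r and cd8a overlapped in each strain at that age. At 20 dph cd3e again had the highest mean, at 6.36 ± 0.979 TPM in Select and 3.81 ± 1.71 in Commercial. Next came il7r at 2.88 ± 0.856 and 2.35 ± 0.317. In Commercial the ranges of cd3e (1.84 to 5.64 TPM) and il7r (2.03 to 2.87 TPM) overlapped at 20 dph, and their CPM means were 3.69 and 3.7. Below them prf1 stood at 0.496 ± 0.182 in Select and 0.647 ± 0.127 in Commercial, and cd8a at 0.398 ± 0.375 and 0.163 ± 0.0997. So cd8a stood last at 20 dph and beside il7r at 65 dph. In Select the ranges of prf1 (0.294 to 0.704 TPM) and cd8a (0 to 0.836 TPM) overlapped at 20 dph.

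Other genes tied to T cells were described from 7 lists by function, chosen with earlier results of these data known. Some of these genes had levels far above cd3e, which averaged 27.1 CPM in Select 65 dph. In that group ctsc averaged 800 CPM, ccl25a 309 CPM and stxbp2 141 CPM. Which cells expressed the listed genes was not tested, so the counts describe list genes and not T cells alone. Of 49 genes matched, 37 passed the filter, and 25 passed it at each age alone without cd3e and il7r. Of those 25, 15 rose and 1 fell with age in Select, and 17 rose and 2 fell in Commercial. In every fit that left out 1 library, 12 of the 15 and 13 of the 17 stayed called, and none of those that fell did (0 in each strain). The median log2 fold change of the 25 was 0.75 in Select, where the median over all features was 0.07. In Commercial it was 0.81, where that over all features was 0.05. Among all features tested, 16.4% were called higher and 17.9% lower in Select, and 14.5% and 15.6% in Commercial. These shares also stand beside the counts by list in the paragraphs that follow. They and the medians over all features include features that did not pass the filter at each age, unlike the 25. The scale matters for the feature counts: on the deposited TPM values, 12232 features were higher and 2553 lower in Select, with a median of 0.35, where the counts gave 5264 higher and 5755 lower. In Commercial the TPM values gave 10432 higher and 2319 lower with a median of 0.30, where the counts gave 4657 and 5023. The 12 matched genes that were too low to test were cd28, cxcr3.1, cxcr3.2, eomesb, faslg, gata3, ifng, ikzf1, il2, il21, nfatc1 and tbx21.

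Among the receptor and coreceptor genes, the CD4 coreceptor genes had smaller fold changes than cd8a, a difference between genes that was not tested. The CD4 gene cd4-1 measured 7.14 ± 2.45 CPM in Select and 9.36 ± 2.80 in Commercial at 65 dph, and 4.11 ± 1.01 in Select and 3.15 ± 0.666 in Commercial at 20 dph (SD, n = 5 each). It rose by 0.80 ± 0.26 on the log2 scale in Select (adjusted p = 0.0239) and by 1.57 ± 0.27 in Commercial (adjusted p = 0.00022). Leaving out any of replicates 1, 3 and 5 at 20 dph, or 1 and 3 at 65 dph, ended the call in Select (log2 fold changes of 0.62 to 0.75, adjusted p = 0.0542 to 0.0851). Its copy cd4-2.2, which like cd8a passed the filter only through the 65 dph libraries and so had to be higher there, was called in Commercial (2.14 ± 0.39, adjusted p = 0.000433) and measured 3.44 ± 0.61 CPM at 65 dph against 1.92 ± 0.878 at 20 dph in Select (0.83 ± 0.37, adjusted p = 0.0898).

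The costimulatory receptor gene cd226 rose in both strains, by 1.77 ± 0.31 in Select (adjusted p = 0.000288) and 2.03 ± 0.32 in Commercial (adjusted p = 0.000108). Of the receptor signalling genes that passed at each age, 2 of 4 rose in Select and 3 of 4 in Commercial, where malt1 (0.47 ± 0.14) was not called without 20 dph replicate 1 or 65 dph replicate 4 (adjusted p = 0.053 and 0.0565). Those that rose in both strains included themis, which is needed for T cell maturation in mice, at 3.25 ± 0.931 CPM in Select 65 dph against 1.19 ± 0.2 in Select 20 dph, and at 2.97 ± 0.741 against 0.984 ± 0.518 in Commercial. The calcium-regulated transcription factor gene nfatc3a also rose, by 1.72 ± 0.32 in Select and 1.17 ± 0.31 in Commercial (adjusted p = 0.000426 and 0.00737), while its copy nfatc3b was not called in either strain.

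Genes of the common gamma chain cytokines, the family to which il7r belongs, rose in 6 of 7 cases in Select and 4 of 7 in Commercial. Both counts include il7r itself, so they are not apart from the result for that gene. The call of socs1, a gene for an inhibitor of cytokine signalling, in Select (1.09 ± 0.40) ended without replicate 1, 4 or 5 at 20 dph or 3, 4 or 5 at 65 dph (adjusted p = 0.0591 to 0.154). The kinase gene jak3, which acts directly on the common gamma chain, measured 19.2 ± 4.96 CPM in Select 65 dph against 4.3 ± 1.35 in Select 20 dph, and 17.7 ± 2.37 in Commercial 65 dph against 4.71 ± 0.841 in Commercial 20 dph. Its log2 fold changes, 2.15 ± 0.22 in Select and 1.91 ± 0.21 in Commercial (adjusted p = 1.84e-06 and 4.07e-06), were close in size to those of il7r. The receptor chain gene il2rb, shared by interleukins 2 and 15, rose by 1.57 ± 0.26 and 1.39 ± 0.26, and the cytokine gene il15 by 0.71 ± 0.18 and 0.87 ± 0.18, in Select and Commercial in that order. The interleukin 15 receptor gene il15ra rose in Select (1.91 ± 0.40, adjusted p = 0.00114) and had 0.62 ± 0.38 in Commercial (adjusted p = 0.234), and the difference between these was not called (1.29 ± 0.54, adjusted p = 0.881).

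Of the cytotoxic granule genes, 3 passed the filter at each age, of which 2 rose in Select and 3 in Commercial. The protease gene ctsc in Commercial (0.73 ± 0.27, adjusted p = 0.0479) stayed called in 2 of 10 fits that left out 1 library, those without 20 dph replicate 3 or 65 dph replicate 2, and the others gave 0.59 to 0.80 (adjusted p = 0.0584 to 0.124). The first of those called in both strains was srgn, encoding the granule proteoglycan serglycin, with 1.19 ± 0.26 in Select and 1.42 ± 0.26 in Commercial (adjusted p = 0.00178 and 0.000512). The second was stxbp2, encoding a protein of granule release, with 0.75 ± 0.16 and 0.81 ± 0.16 (adjusted p = 0.00172 and 0.00106). The killer cell transcription factor gene eomesa measured 2.18 ± 0.553 CPM in Select 65 dph against 0.355 ± 0.171 in Select 20 dph, and 1.2 ± 0.237 against 0.113 ± 0.147 in Commercial; like prf1, it passed only through the 65 dph libraries. The other perforin-like genes that were tested were not called in either strain. The gene prf1.3 measured 1.04 ± 0.709 CPM in Select 65 dph and 3.24 ± 2.06 in Select 20 dph (log2 fold change -1.63 ± 0.86, adjusted p = 0.154), and 0.932 ± 1.11 against 0.772 ± 0.924 CPM in Commercial (0.26 ± 0.87, adjusted p = 0.86). For prf1.5 the log2 fold change was 0.19 ± 0.46 in Select and 0.89 ± 0.47 in Commercial (adjusted p = 0.787 and 0.163).

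Among transcription factor genes, tcf7, encoding a factor of T cell development, rose by 2.03 ± 0.24 in Select and 2.33 ± 0.24 in Commercial (adjusted p = 6.85e-06 and 1.9e-06). Of the copies of foxp3, the factor of regulatory T cells in mammals, foxp3-2 measured 5.55 ± 1.43 CPM in Select 65 dph against 1.14 ± 0.768 in Select 20 dph, and 5.2 ± 1.21 against 0.526 ± 0.434 in Commercial; it passed the filter only through the 65 dph libraries. The copy foxp3-1 was called lower at 65 dph (-0.42 ± 0.13 in Select, adjusted p = 0.0206; -0.41 ± 0.13 in Commercial, adjusted p = 0.0282), but its direction turned to 0.12 and 0.11 on the TPM values. On that scale the median over all features also moved up, and foxp3-1 stayed below it in both strains. In Select the foxp3-1 call ended when replicate 1 at 20 dph or replicate 2 or 5 at 65 dph was left out (-0.39 to -0.37), and in Commercial when replicate 2 or 4 at 20 dph or 2 or 5 at 65 dph was (-0.37 to -0.35), or both libraries that lay apart were (-0.32). The other gene called lower in Commercial was prdm1b (-0.90 ± 0.29, adjusted p = 0.0254), a call that ended without replicate 1 or 3 at 20 dph or replicate 1, 2 or 4 at 65 dph or without both libraries that lay apart (adjusted p = 0.0502 to 0.0671). In Commercial the related genes id2 and id2a were called higher (0.37 ± 0.12 and 0.51 ± 0.16), and each call ended in some fits that left out 1 of 20 dph replicates 1, 2 and 4 or 65 dph replicates 2, 4 and 5 (adjusted p = 0.0532 to 0.0822). Of the homing genes that passed at each age, 3 of 4 rose in each strain, where klf2a in Select (0.74 ± 0.23) was not called without 20 dph replicate 1 or 65 dph replicate 1 or 5 (0.59 to 0.67). The integrin gene itgae.2, whose mammalian product holds T cells in the epithelium, measured 39.5 ± 8.31 CPM in Select 65 dph against 15.0 ± 2.46 in Select 20 dph, and 42.5 ± 6.79 against 12.3 ± 2.37 in Commercial. Its partner chain gene itgb7 rose by 0.79 ± 0.16 in Select and 1.22 ± 0.16 in Commercial.

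**Figure D2:**
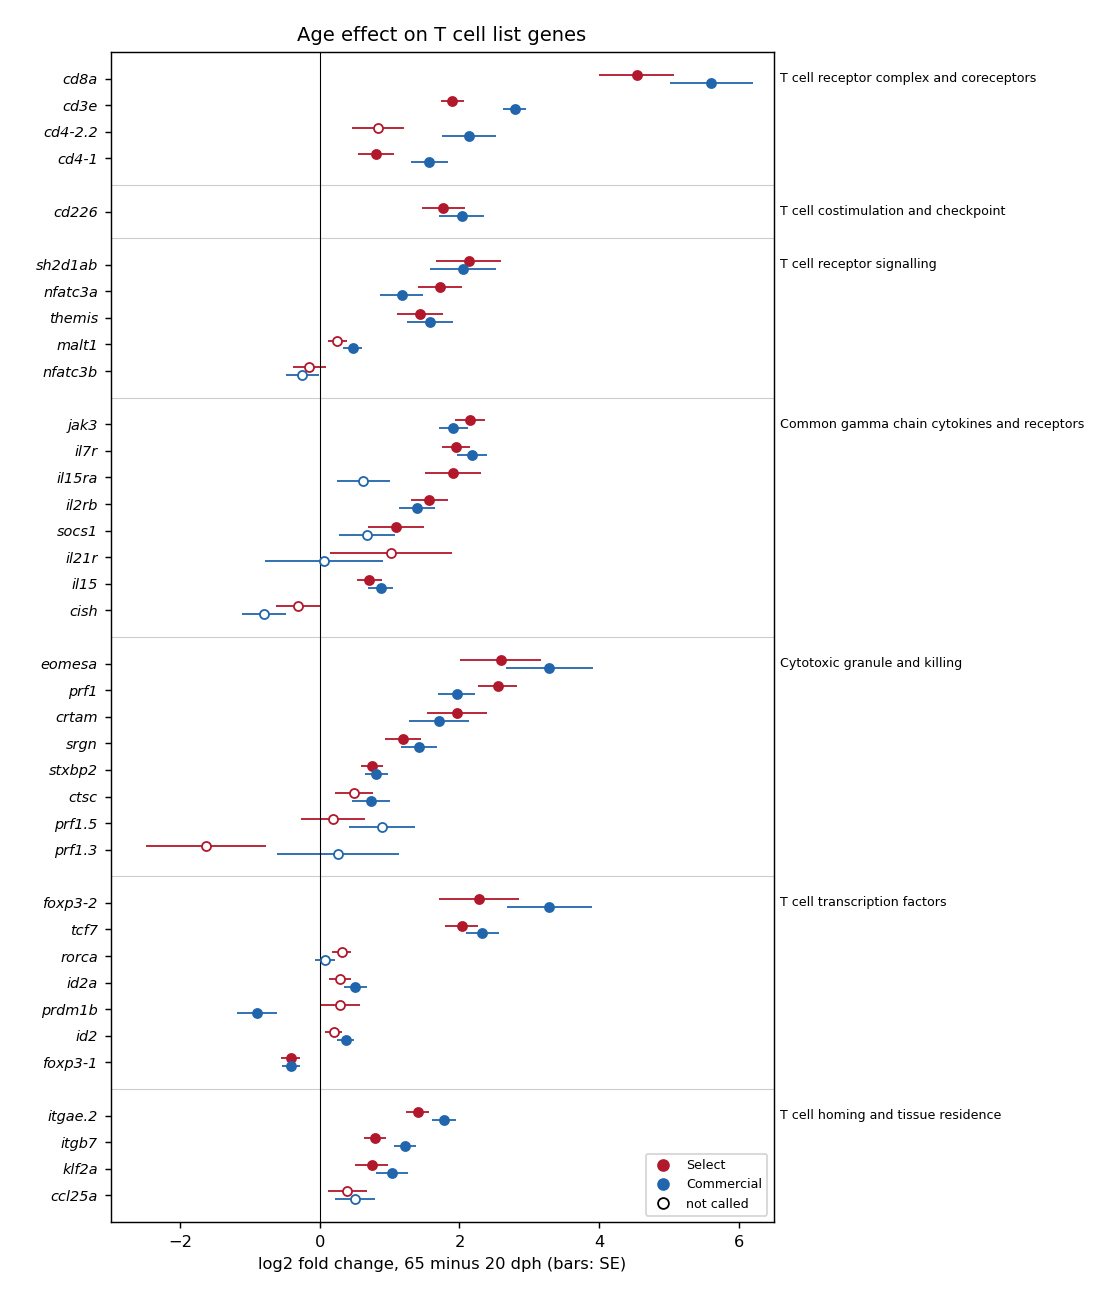
Log2 fold change of 65 over 20 dph with its SE for the 37 tested genes of the 7 T cell lists, in Select (red) and Commercial (blue), with open circles where the gene was not called. Most points lie right of 0, with cd8a farthest out (4.54 in Select and 5.61 in Commercial). Of the genes, 10 did not pass the filter at each age alone. The gene foxp3-1 is called left of 0 in both strains, a direction that turns to 0.12 and 0.11 on the TPM values, below the median over all features there.

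Markers of other cell types moved with age too, and their part in the T cell result was not tested. These counts are of genes that passed the filter at each age alone, and stand beside the 16.4% of all features called higher in Select and 14.5% in Commercial. Of 3 pan-leukocyte genes 1 rose in Select and 2 in Commercial. The gene in Select, plek, lost its call without replicate 1, 2, 3 or 5 at 20 dph or 2 or 3 at 65 dph (0.54 to 0.65, adjusted p = 0.0605 to 0.111). Outside these counts is dock2, a tested pan-leukocyte gene that did not pass the filter at each age alone. It was called higher in both strains, in Commercial not in 1 of 10 omissions. Its means were 1.13 ± 0.368 CPM in Select 65 dph against 0.306 ± 0.173 in Select 20 dph, and 0.9 ± 0.472 against 0.265 ± 0.108 in Commercial. The list of 4 had a summed level of 20.0 to 33.7 CPM in Select 65 dph against 17.0 to 26.5 in Select 20 dph, and of 21.0 to 29.3 against 11.4 to 19.0 in Commercial. Of 2 B cell genes 1 rose in each strain, which in Select was btk, not called without 20 dph replicate 1 or 2 or 65 dph replicate 5 (0.42 to 0.52, adjusted p = 0.0503 to 0.0811). A further tested B cell gene, cd79b, did not pass the filter at each age alone and is outside these counts. It averaged 2.77 ± 1.23 CPM in Select 65 dph against 0.77 ± 0.46 in Select 20 dph, and 2.32 ± 0.45 against 0.431 ± 0.185 in Commercial. In every fit that left out 1 library, cd79b was called higher (1.63 to 2.2 in Select, 2.15 to 2.51 in Commercial). The B cell list summed to 23.0 to 31.9 CPM in Select 65 dph against 17.4 to 21.0 in Select 20 dph and 24.8 to 36.3 against 15.8 to 19.7 in Commercial, and 1 matched B cell gene was at 0 in every library. Of 2 tested macrophage genes 1 rose in Select and 2 in Commercial, where irf8 (0.80 ± 0.28) stayed called in Commercial only without 20 dph replicate 1 or 5 or 65 dph replicate 2, the other 7 of 10 omissions giving 0.71 to 0.80 (adjusted p = 0.0605 to 0.0863). The macrophage list summed to 40.7 to 58.1 CPM in Select 65 dph against 26.0 to 40.4 in Select 20 dph, and 37.4 to 56.0 against 18.2 to 30.2 in Commercial. Among neutrophil genes, 1 of 3 rose in Select and 0 of 3 in Commercial. Of 4 erythrocyte and thrombocyte genes 2 rose in each strain, the hemoglobin genes hba1 (4.74 in Select and 4.32 in Commercial) and hbb1 (2.85 and 2.74). The others were not called: alas2, of heme synthesis, had -0.19 ± 0.36 in Select and -0.41 ± 0.36 in Commercial, and the platelet receptor gene gp9 had 0.15 ± 0.27 and 0.03 ± 0.27. Over the 5 tested genes, with itga2b, which passed only with both ages, the median was 0.15 in Select and 0.05 in Commercial. The list summed to 95.8 to 157 CPM in Select 65 dph against 13.6 to 48.7 in Select 20 dph, and to 88.4 to 146 against 17.9 to 56.0 in Commercial, most of it from hemoglobin genes at 65 dph.

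Of 8 tested epithelial genes, 2 fell in Select and 4 fell and 2 rose in Commercial. Counts of genes that fell stand beside the 17.9% of all features called lower in Select and 15.6% in Commercial. Of the 4, the keratin gene krt18b (-0.65 ± 0.23) stayed called only without 20 dph replicate 1 or 65 dph replicate 2, and the other 8 of 10 omissions gave -0.68 to -0.56 (adjusted p = 0.0506 to 0.0945). The fatty acid binder gene fabp2 fell by 0.76 ± 0.17 on the log2 scale in Select and by 0.88 ± 0.17 in Commercial (adjusted p = 0.00179 and 0.000647). The size of the falls depends on the scale. In Commercial vil1, also called lower, averaged 2150 CPM at 65 dph against 3060 at 20 dph, but 1010 against 1100 TPM. In TPM fabp2 averaged 9690 against 12200 in Select and 9750 against 13800 in Commercial. The summed epithelial level was 10300 to 15100 CPM in Select 65 dph against 9770 to 16800 in Select 20 dph, and 10500 to 14800 against 15200 to 18100 in Commercial. Of the thymus list the recombination genes rag1 and rag2 were too low to test, and prss16, a protease gene of the mammalian thymus, rose in Commercial (0.77 ± 0.26, adjusted p = 0.0329) with 0.43 ± 0.26 in Select (adjusted p = 0.217). The call for prss16 ended without Commercial replicate 1, 2 or 4 at 20 dph or 2, 4 or 5 at 65 dph, and without both libraries that lay apart (0.59 to 0.72, adjusted p = 0.0680 to 0.0909). Of 2 liver genes that passed at each age, apoa2 fell in both strains (-7.27 ± 1.3 in Select and -3.65 ± 1.09 in Commercial). Without 1 library it stayed called, but its size ran from -8 to -4.29 in Select and from -3.96 to -3.42 in Commercial. The other, tfa, was called lower in Select (-7.96 ± 2.06) but not without Select 20 dph replicate 1 (-0.91, adjusted p = 0.487). Of 2 muscle genes myl1 was called lower in Select (-5.92 ± 1.77), and without that library it had 2.21 (adjusted p = 0.153), while 0 were called in Commercial. No gene of the exocrine pancreas list was matched by symbol (0).

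The second comparison asks how the strains differ at 20 dph, soon after feeding began. The mean of cd3e was 7.28 ± 1.19 CPM in Select intestines and 3.69 ± 0.634 CPM in Commercial ones (SD over 5 libraries), and the 5 libraries of each strain did not overlap. The difference was 1.97-fold (log2 fold change 0.98 ± 0.17 SE, approximate 95% interval 0.62 to 1.34, adjusted p = 0.0284), and cd3e ranked 19 by p. It was the only one of the 4 genes called, where 0.159% of all features were called, 0.106% as higher and 0.0529% as lower in Select. Groups did not overlap, in that direction, for 1.06% of features.

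This call was close to the threshold. Its adjusted p was between 0.00091 with DESeq2 and 0.239 on the deposited TPM values, over all alternatives, with limma-voom at 0.126 and a fit to the 20 dph libraries alone at 0.083. Leaving out 1 library ended it in 7 of 10 cases: without Commercial replicate 1 (adjusted p = 0.0644), 2 (0.0847), 4 (0.0714) or 5 (0.0572), or without Select replicate 2 (0.0663), 4 (0.0679) or 5 (0.0536). In these fits the log2 fold change was 0.89 to 0.99, so that its size moved little.

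The other genes were not called at 20 dph, and their differences went both ways. The log2 fold change of Select over Commercial was 1.24 ± 0.65 for cd8a (interval -0.15 to 2.63, adjusted p = 0.556), from 11 against 5 counts in 5 libraries each, so that it was not resolved at this depth. For il7r it was 0.31 ± 0.21 (-0.13 to 0.74, adjusted p = 0.694). For prf1 it was -0.46 ± 0.28 (-1.05 to 0.13, adjusted p = 0.671), so that Select had the lower mean. The 3 intervals include 0, and those of il7r and prf1 do not reach the 0.98 measured for cd3e. The interval of cd3e itself (0.62 to 1.34) overlaps that of il7r, and differences between genes are examined as ratios further on.

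**Figure D3:**
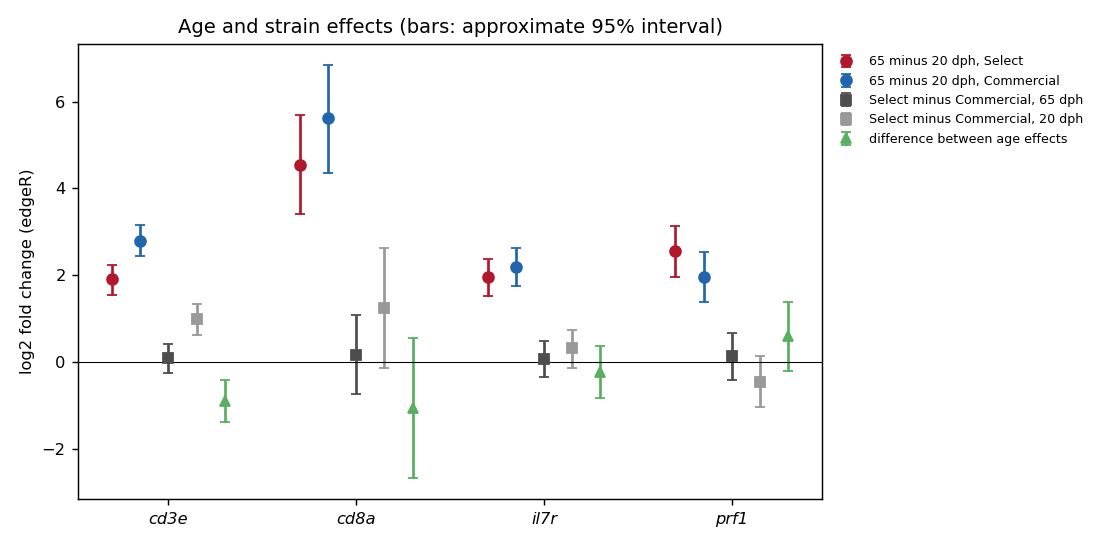
Log2 fold changes of the 4 genes with approximate 95% intervals, for the age effect in Select and in Commercial, the strain difference at 65 and at 20 dph, and the difference between the age effects. All age effects lie above 0, the strain differences at 65 dph lie within 0.17 of 0, and cd3e at 20 dph (0.98) is the strain difference whose interval lies clear of 0. The genes cd8a and prf1 had to be higher at 65 dph to pass the filter on low counts.

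None of the other 33 tested T cell list genes was called between the strains at 20 dph (0 by edgeR, 7 at an unadjusted p under 0.05, 0 by limma-voom). Over the whole table, 3316 of 32166 features had an unadjusted p under 0.05 in the edgeR fit at this age. DESeq2, which also called more features over the whole table than edgeR, called 3 genes of all the T cell lists: cd3e, cd4-2.2 as higher and prdm1b as lower in Select. The median log2 fold change of the 33 was 0.12. The largest differences by p were prdm1b, encoding a factor of terminal lymphocyte maturation that also acts in the young gut epithelium of mice, and cd4-2.2. In Select prdm1b measured 3.8 ± 1.01 CPM against 9.06 ± 2.38 in Commercial (-1.25 ± 0.29, adjusted p = 0.102), with no overlap, and cd4-2.2 measured 1.92 ± 0.878 against 0.69 ± 0.324 CPM (1.46 ± 0.39, adjusted p = 0.155). Of the 7 genes with an unadjusted p under 0.05, 4 were higher in Select (cd4-2.2, eomesa, prf1.3 and tcf7) and 3 lower (il15ra, nfatc3a and prdm1b). The factor gene tcf7 measured 2.09 ± 0.759 CPM in Select and 1.35 ± 0.311 in Commercial (adjusted p = 0.358). The gene il15ra measured 1.63 ± 0.987 CPM in Select and 3.45 ± 1.25 in Commercial (adjusted p = 0.311), and nfatc3a 2.39 ± 0.968 and 4.03 ± 1.59 (adjusted p = 0.407).

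Markers of other cells at 20 dph are given beside cd3e, and their part in its difference was not tested. The 4 pan-leukocyte genes summed to 17.0 to 26.5 CPM in Select and 11.4 to 19.0 in Commercial, with 0 called and a median log2 fold change of 0.38. Of these rac2, a GTPase of blood cells, had 0.79 ± 0.23 (adjusted p = 0.201) and the leukocyte membrane gene cd53 had 0.58 ± 0.21 (adjusted p = 0.301). The 3 tested B cell genes had a median of 0.44 and the 2 macrophage genes a median of 0.32, with 0 called in each. Epithelial genes summed to 9770 to 16800 CPM in Select and 15200 to 18100 in Commercial, with a median of -0.10 and 0 of 8 called. Select 20 dph replicate 1, the library with liver transcripts, held 7.16 CPM of cd3e, within the range of its group, and without it cd3e was still called (0.98, adjusted p = 0.0446).

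At 65 dph the strain means of all 4 genes lay within 0.17 of each other on the log2 scale, and no difference was called. The mean of cd3e was 27.1 ± 5.48 CPM in Select and 25.7 ± 4.15 in Commercial, that of cd8a 6.64 ± 1.35 and 5.89 ± 1.79, that of il7r 17.6 ± 4.23 and 16.8 ± 2.15, and that of prf1 4.54 ± 1.47 and 4.15 ± 1.29 (SD, n = 5 each). The library ranges overlapped for each gene. The log2 fold change of Select over Commercial was 0.08 ± 0.16 for cd3e (approximate 95% interval -0.25 to 0.41, adjusted p = 0.984) and 0.07 ± 0.19 for il7r (-0.34 to 0.48, adjusted p = 0.99). It was 0.13 ± 0.25 for prf1 (-0.41 to 0.67, adjusted p = 0.983) and 0.17 ± 0.43 for cd8a (-0.73 to 1.08, adjusted p = 0.99). The interval of cd3e lies below the 0.98 found for cd3e at 20 dph. That of cd8a lies below its own 20 dph value of 1.24, which was not resolved.

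At this age no feature of the whole table was called by edgeR (0 of 32166, 0.0%; 2000 at an unadjusted p under 0.05; 121 by DESeq2 and 0 by limma-voom). Of the 4 genes 0 were called, also at an unadjusted p under 0.05. Of the 37 T cell list genes 0 were called by edgeR, DESeq2 or limma-voom, and klf2a had an unadjusted p under 0.05 (1 gene). This gene, encoding a factor of lymphocyte exit from tissues that is also strong in blood vessel walls, measured 59.4 ± 12.7 CPM in Select and 87.2 ± 12.3 in Commercial without overlap (-0.55 ± 0.23, adjusted p = 0.759). The killer cell factor eomesa had 2.18 ± 0.553 CPM in Select and 1.2 ± 0.237 in Commercial, also without overlap (0.85 ± 0.53, adjusted p = 0.883). Groups did not overlap for 0.998% of all features. The libraries that lay apart at this age bear on the table as a whole: 53 features were called without both of them, 125 without Commercial 65 dph replicate 2 and 7 without Select 65 dph replicate 5. The 4 genes were not among the features called: without both libraries their log2 fold changes were 0.11 for cd3e, 0.19 for cd8a, 0.08 for il7r and 0.10 for prf1 (adjusted p = 0.882, 0.942, 0.945 and 0.946).

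Whether the age effects differed between the strains was tested directly. For cd3e the difference between the log2 fold changes, Select minus Commercial, was -0.90 ± 0.23 (approximate 95% interval -1.39 to -0.41). Its unadjusted p of 0.00101 in edgeR did not pass over all features (adjusted p = 0.881). The difference was -1.07 ± 0.76 for cd8a (adjusted p = 0.913), -0.24 ± 0.28 for il7r (adjusted p = 0.95) and 0.59 ± 0.38 for prf1 (adjusted p = 0.908). The sign for cd8a rests on a few counts, and on the TPM values it was 0.01. No feature was called by edgeR (0 of 32166, 0.0%; 1781 at an unadjusted p under 0.05; 66 by DESeq2 and 0 by limma-voom), and cd3e ranked 30 by p. With DESeq2 the adjusted p of cd3e was 0.18.

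The balance among the 4 genes was examined as the log2 ratio of cd8a, il7r or prf1 to cd3e within a library, which scaling of the libraries hardly touches. Relative to cd3e, cd8a was higher at 65 dph in both strains, with a mean log2 CPM ratio of -1.99 ± 0.04 in Select 65 dph against -4.10 ± 0.72 in Select 20 dph, and -2.14 ± 0.38 against -3.62 ± 0.43 in Commercial (SD, n = 5 each). The differences of 2.11 and 1.48 passed an exact 2-sided permutation test over the libraries (p = 0.00794 each, the smallest that 5 against 5 can give; adjusted p = 0.0238 over 12 tests). Because cd8a and prf1 passed the filter only through the 65 dph libraries, the age tests of their ratios are not independent of that choice. For cd8a, which had to be higher at 65 dph to be tested at all, the passed test is no separate evidence of a rise. A prior count of 2 was added to each gene, which holds the 20 dph ratios of cd8a closer to 0 than the raw counts would. Among the Select 65 dph libraries the ratio ran from -2.05 to -1.95, and among the Commercial 65 dph libraries from -2.74 to -1.74.

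For il7r the ratio to cd3e was -0.62 ± 0.17 in Select 65 dph against -0.69 ± 0.32 in Select 20 dph, and the difference of 0.07 did not pass (adjusted p = 0.849, exact permutation test). In Commercial it was -0.60 ± 0.20 at 65 dph against 0.01 ± 0.40 at 20 dph, a difference of -0.61 (p = 0.0159, adjusted p = 0.0381, exact permutation test). That call was lost without Commercial 20 dph replicate 1, 2, 4 or 5 or Commercial 65 dph replicate 1, 2, 3 or 4 (adjusted p = 0.0762 in each case, differences of -0.66 to -0.44). With 1 library fewer the exact test has fewer splits and coarser p-values, so a lost call need not mean a smaller difference. Without Commercial 20 dph replicate 1 the difference was -0.66, larger than in the main test. For prf1 the ratio was -2.54 ± 0.34 in Select 65 dph against -2.95 ± 0.44 in Select 20 dph (difference 0.40, adjusted p = 0.218, exact permutation test). In Commercial it was -2.60 ± 0.52 against -1.62 ± 0.25 (difference -0.99, adjusted p = 0.0635, exact permutation test), and without Commercial 65 dph replicate 5, the library with the highest prf1 of its group, the difference was -1.21 and passed (adjusted p = 0.0317).

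Between the strains the ratios differed at 20 dph. Select had less il7r per cd3e (-0.69 ± 0.32 against 0.01 ± 0.40 in Commercial, difference -0.70) and less prf1 per cd3e (-2.95 ± 0.44 against -1.62 ± 0.25, difference -1.33). In both cases the libraries did not overlap, and each passed the exact permutation test (p = 0.00794, adjusted p = 0.0238; SD, n = 5 each). These ratios share cd3e, which was itself higher in Select at that age, and the levels of il7r and prf1 were not called. For cd8a the ratio was -4.10 ± 0.72 in Select and -3.62 ± 0.43 in Commercial at 20 dph (difference -0.49, adjusted p = 0.321, exact permutation test). With a prior count of 0.5 the difference was -0.29. Its sign was not resolved, because few counts of cd8a lie behind it and the strains stood in the other order in summed TPM. At 65 dph no ratio passed, with differences of 0.14 for cd8a, -0.02 for il7r and 0.06 for prf1 (adjusted p = 0.72, 0.849 and 0.849, exact permutation test). Per length, cd8a came to 0.396 of cd3e in summed TPM in Select 65 dph and 0.374 in Commercial 65 dph, against 0.0625 in Select 20 dph and 0.0427 in Commercial 20 dph.

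**Figure D4:**
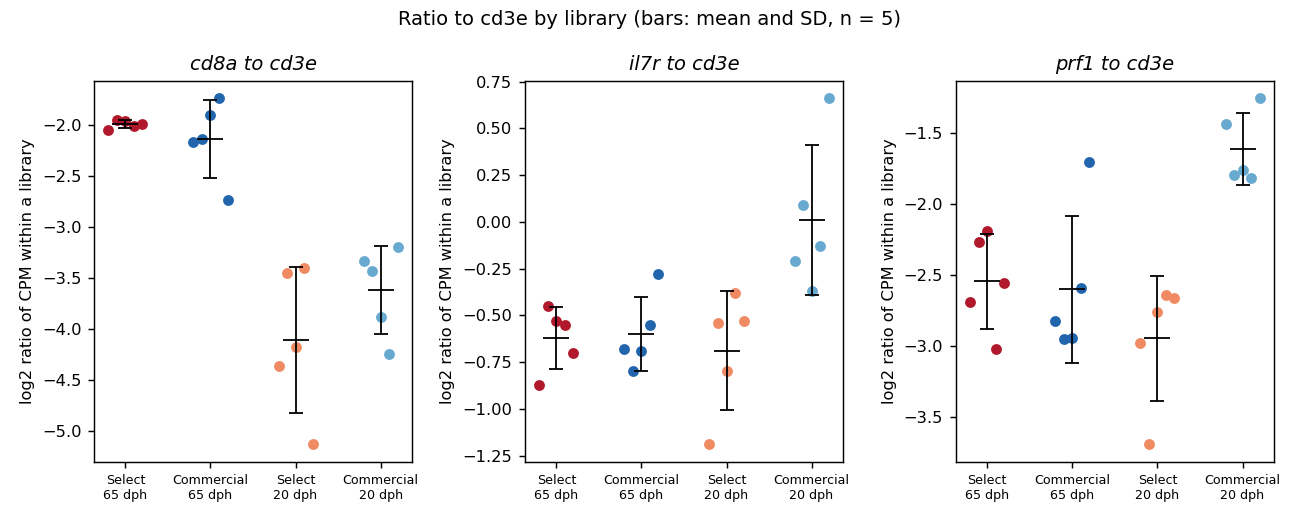
Log2 ratio of cd8a, il7r and prf1 to cd3e (CPM with a prior count of 2) in each library, with the mean and SD of 5 libraries per group. The ratio of cd8a lies near -2 at 65 dph and below -3 at 20 dph in each strain, while il7r and prf1 stand apart in Commercial at 20 dph (means of 0.01 and -1.62). Both cd8a and prf1 passed the filter on low counts only through the 65 dph libraries.

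Whether libraries of a group deviated together in the 4 genes was examined pair by pair, and no pair passed after adjustment. Over the 20 libraries, after removing group means, Pearson's r was 0.50 for cd3e and cd8a (permutation p = 0.0277, adjusted p = 0.146 over 6 pairs; Spearman's rho 0.46, p = 0.0616, adjusted p = 0.171) and 0.44 without Select 65 dph replicate 5 and Select 20 dph replicate 3, the 2 libraries farthest out in cd3e. For cd3e and il7r it was 0.49 (permutation p = 0.0486, adjusted p = 0.146; rho 0.44, p = 0.0854, adjusted p = 0.171) and 0.32 without the same 2 libraries. For cd8a and il7r it was 0.45 (permutation p = 0.146, adjusted p = 0.292; rho 0.53, p = 0.0547, adjusted p = 0.171) and 0.74 without Select 20 dph replicate 5 and Commercial 65 dph replicate 5, the 2 farthest out in cd8a. For il7r and prf1 it was 0.31 (permutation p = 0.222, adjusted p = 0.332; rho 0.27, p = 0.31, adjusted p = 0.466) and 0.53 without Select 20 dph replicates 1 and 2, the 2 farthest out in il7r. For cd3e and prf1 it was 0.10 (permutation p = 0.713, adjusted p = 0.713; rho 0.11, p = 0.663, adjusted p = 0.795) and -0.05 without the 2 farthest out in cd3e. For cd8a and prf1 it was -0.21 (permutation p = 0.417, adjusted p = 0.5; rho 0.0, p = 0.998, adjusted p = 0.998) and 0.19 without the 2 farthest out in cd8a.

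Some genes followed the same course over the 20 libraries more closely than the 4 followed each other. Likeness was measured as the root mean square difference of log2 CPM after centring each gene, over 4669 candidate genes (those with a symbol whose log2 CPM averaged 1 or more), and the shared course is mostly the age difference. Each of the 4 genes was given its place against these candidates, whether or not it reached that average itself. Nearest to cd3e were si:ch1073-220m6.1 (0.27), si:ch73-109i22.2 (0.32), si:dkey-81j8.6 (0.37), il7r (0.38) and tcf7 (0.39), with prf1 in place 27 (0.61) and cd8a in place 558 (1.0). The nearest of them, si:ch1073-220m6.1, averaged 13.3 ± 3.08 CPM in Select 65 dph and 11 ± 2.94 in Commercial 65 dph, and 3.01 ± 0.945 in Select 20 dph and 1.6 ± 0.559 in Commercial 20 dph (SD, n = 5 each). Nearest to il7r were si:dkey-81j8.6 (0.22), si:ch73-109i22.2 (0.25), sash3, an adaptor gene of lymphocyte signalling (0.25), itgae.2 (0.30) and tcf7 (0.31).

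Nearest to prf1 were tbc1d10c (0.35), jak3 (0.36), si:ch211-244b2.3 (0.40), il7r (0.41) and tbxas1, the thromboxane synthase gene (0.42), with cd3e in place 89 (0.61). For cd8a the nearest genes lay farther off: si:ch211-212k18.15 (0.72), the synaptotagmin gene syt5a (0.74), helz2a and ifit8, which interferon induces (0.85 each), and cuzd1.2 (0.88), with cd3e in place 13 (1.0). Of these helz2a averaged 118 ± 92.5 CPM in Select and 86.0 ± 18.5 in Commercial at 65 dph, against 4.58 ± 2.29 in Select and 4.11 ± 2.93 in Commercial at 20 dph (SD, n = 5 each). The genes si:ch73-109i22.2, si:dkey-81j8.6 and tcf7 stood among the 5 nearest of both cd3e and il7r.

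The transcripts behind the sums set some limits. For cd3e, a transcript of 2171 bases held 91.5% of the counts and another of 540 bases held 8.5%, with a share of the shorter between 0% and 25.2% in Commercial 20 dph libraries and between 2.97% and 9.61% in Select 20 dph libraries. Commercial 20 dph replicate 4 had 5.54 TPM of cd3e with 25.2% on the shorter transcript, and replicate 5 had 1.84 TPM with 0%. The TPM levels of cd3e there, and ratios to them, thus depend on this split. With the longer transcript alone, a check added after seeing the data, the strain difference at 20 dph was 1.04 (adjusted p = 0.0266). For il7r, transcripts of 2263 and 2260 bases held 56.8% and 43.2%, and the share of the first ran from 0% to 100% between 20 dph libraries, so that the 2 cannot be told apart there while their sum was in whole counts. The cd8a count came from 1 transcript of 1085 bases and was whole in every library. The prf1 count came from 1 transcript of 2070 bases and was a fraction in every library (100% of values), so that some of its reads were shared with other transcripts and its level is uncertain to that extent. Further copies of these genes that carry no symbol in the gene table are not in the sums.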

How the data were processed

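Total RNA from whole intestines was sequenced as stranded poly(A) libraries, per the labels' protocols. The authors quantified transcripts with Salmon 1.2.1, per the submitters' processing notes, and deposited a table for each of the 20 samples with expected counts and TPM for 78931 transcripts. The deposited TPM values are abundances scaled for transcript length and library size, per the file headers. The transcriptome build is not given in the sources used here. Expected counts were summed per gene with a RefSeq gene table (assembly USDA_OmykA_1.1, used for names only), which matched 42376 transcripts by accession without version and 1083 with it. The remaining transcripts stayed as single features, and matched transcripts held 66.5% of the reads. The sums were rounded to whole numbers and tested with edgeR 4.0.16 (quasi-likelihood, robust, TMM, filterByExpr) in 1 fit of 4 group means over all 20 libraries, with Benjamini-Hochberg adjustment over 32166 features and a threshold of 0.05. SEs were approximated from the fold change and F statistic. Ratios and correlations were tested by permutation (scipy 1.17.1).

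Alternatives were DESeq2 1.42.0, limma 3.58.1 on voom weights or log2(TPM + 1), other scaling and filters, a replicate block and left-out libraries. The pipeline was tested on simulated data. The rule for named genes took the 4 genes, up to 4 called genes with the lowest p per list and comparison, uncalled ones with the lowest p where fewer than 2 were called, and the 5 genes nearest in profile; other list genes were named after their values were seen. The members and lists were chosen with earlier results of these data known. The highest correlation between any 2 libraries was 0.9092, and none were merged. Reads carry no molecular identifiers. The exact Poisson intervals of summed counts cover counting error only. The approximate intervals of log2 fold changes rest on the SEs of the edgeR fit, which include the spread between libraries. Replicate numbers were not found to pair samples across groups.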

Additional observations from a re-analysis of the deposited data

Results flagged for a closer look

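Among 28 groups of 5 libraries examined, 2 held a library far from the others, where chance gives about 1 in 20. The il7r level of Commercial 20 dph replicate 5 was the highest of its group at 4.67 CPM, where the other 4 libraries lay between 3.22 and 3.59 CPM. The prf1 level of Select 65 dph replicate 3 was the highest of its group at 7.08 CPM, where the other 4 lay between 3.4 and 4.35 CPM. The same Select library also had the highest cd3e, cd8a and il7r of its group, at 33.0, 8.3 and 22.7 CPM.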

How the results depend on the processing

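The age effects of cd3e and il7r stayed called in each strain under every alternative run. Those of cd8a and prf1 did too. These 2 genes passed the filter only with the 65 dph libraries, and so had to be higher there to be tested. In the main fit, 34.3% of all features were called with age in Select and 30.1% in Commercial. For the strain difference of cd3e at 20 dph (0.98), limma-voom gave 0.96, log2(TPM + 1) 0.68 and a fit of only the 2 groups 1.0, each not called, and leaving out 1 library gave 0.89 to 1.06. The 51 features called at 20 dph became 437 with DESeq2, 29 with limma-voom, 33 with at least 10 counts over all libraries and 20 with the replicate block, and 5 to 46 without 1 library; T cell list genes called there (1) became 3 with DESeq2, 0 with limma-voom, TPM or only the 2 groups, and 0 to 1 without 1 library. At 65 dph the 0 features called between strains became 121 with DESeq2, 9 on TPM, 1 with only the 2 groups, 53 without the 2 libraries apart and 71 without Select 20 dph replicate 1 too, and 0 to 125 without 1 library. For the difference between age effects, 0 became 66, 2 and 1 with DESeq2 and those omissions, and 0 to 2 without 1 library.

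Some differences changed sign, and others moved in size only. On TPM the difference between age effects of cd8a was 0.01. With age foxp3-1 had 0.12 in Select and 0.11 in Commercial, below the median over all features on that scale. Without 1 library the strain difference at 65 dph ran from -0.01 to 0.17 for cd3e, -0.04 to 0.15 for il7r and -0.09 to 0.33 for prf1. The log2 ratio to cd3e ran from -0.01 to 0.24 for cd8a, -0.07 to 0.06 for il7r and -0.03 to 0.28 for prf1 between strains at 65 dph. With age it ran from -0.06 to 0.15 for il7r in Select, -0.7 to -0.44 for il7r in Commercial and -1.21 to -0.9 for prf1 in Commercial. The liver gene hpxb and the muscle genes myl1 and pvalb1 had 1.81, 2.45 and 1.35 with age in Select once Select 20 dph replicate 1 and the 2 libraries apart were out, and ran from -7.28 to 1.74, -6.26 to 2.21 and -7.91 to 1.04 without 1 library.

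Same-numbered libraries of different groups had correlations of their deviations between -0.09 and 0.11, so no pairing by number was found. This cannot show that such libraries share nothing else. With the replicate block the cd3e difference at 20 dph was 1.0 (adjusted p = 0.0482) and the cd4-1 age effect in Select 0.76 (adjusted p = 0.0501). Each library correlated best with its own number in 0 to 3 of 5 cases. The cause of these changes was not tested. Depth limits cd8a at 20 dph, with 11 and 5 counts in all.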
